A study of Homo sapiens with 17 samples.

Results

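The comparison described here is between cells differentiated from human embryonic stem cells that carried both reporter signals at day 40, GFP for SHOX2 and mCherry (GFP+mCherry+, libraries 10 and 13), and cells of the same day that carried neither (GFP-mCherry-, libraries 12, 15 and 18). These are 5 of the 17 RNA-seq libraries of the series, and 14091 of its 20218 genes reached 1 FPKM in at least 2 of the 5 libraries and were compared. All cells came from the H9 line, the labels give SHOX2 as the reporter line, and the same cell type, a sinoatrial-node-like cell, is written for every population, the double-negative cells included. The labels describe a cardiomyocyte procedure (CHIR99021, BMP4, Activin A, XAV939) and a sinoatrial one that adds cucurbitacin, retinoic acid, SU5402, Tyrphostin AG 490 and chidamide, and do not say which procedure gave which sorted population. The gene behind mCherry is not named in them, and MYH6 was taken for it. The sample titles add a minus sign at the end of GFP+mCherry+, which the genotype labels lack, and the latter were followed. The double-negative population is defined only by the lack of both signals, so it can hold any cell of the culture. Beside the 5 libraries, the 3 of GFP-mCherry+ cells of day 40 (libraries 11, 14 and 17) and the 6 of double-positive and double-negative cells of day 25 are given where they help to place a value.

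The sinoatrial node is the small group of heart muscle cells that sets the heartbeat. Its cells are specified by SHOX2, which holds back NKX2-5 and the chamber programme, together with TBX3, TBX18 and ISL1; they beat on their own through HCN channels, low-voltage calcium channels and the release of calcium from internal stores, and they carry a sparser contractile apparatus than chamber muscle. Stem cell cultures directed to the heart also give other cells from mesoderm and endoderm, such as fibroblasts, epicardium, endothelium, epithelium and gut-like or liver-like cells.

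Values are FPKM, fragments normalised for transcript length and library size, so levels can be set side by side between genes. Each gene's libraries are always given in the order 10 and 13 for the GFP+mCherry+ cells, then 12, 15 and 18 for the double-negative cells. A difference is the mean of log2(FPKM + 1) in GFP+mCherry+ minus that in double-negative cells, with its standard error; this scale understates the change of genes with low levels. A gene was called where limma's test, fitted to all 17 libraries, gave an adjusted p under 0.05 (Benjamini-Hochberg over the 14091 genes), and the adjusted p-values below are from that test. Nothing in the labels says that a group's libraries are from different cultures. The p-values therefore rest on library-to-library spread alone, and part or all of it could be technical. In bulk RNA, fewer cells of a type and less RNA per cell cannot be told apart.

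GFP+mCherry+ and double-negative cells of day 40 differed in 1752 genes, or 12.4% of those compared. Of these, 1033 were higher in GFP+mCherry+ cells (7.33% of the genes compared) and 719 were lower (5.1%), and 1240 of the 1752 changed at least 2-fold on the scale used. The median difference over all genes was 0.02. After a correction for the GC content of transcripts, 1266 genes were higher and 489 lower, so the share of higher genes moved from 59% to 72.1%. With quantile normalization 1105 genes were higher and 1106 lower, a share of 50%. Libraries summed to between 566029 and 660085 FPKM across the series. The 2 GFP+mCherry+ libraries correlated at r = 0.944 over genes, the double-negative libraries at 0.945 to 0.964, and pairs across the groups at 0.866 to 0.932. Library 12 stood nearest to the GFP+mCherry+ libraries, and library 13 had the fewest genes above 0 in the series (16493, of which 691 lay between 0 and 0.1 FPKM). Without library 13 the call count was 548 (413 higher, 135 lower), and without library 18 it was 894 (604 higher, 290 lower); without library 12 it was 2104. A gene low in 1 group could enter the comparison through the group where it was high, which favours a difference. On the double-negative libraries alone 621 genes would not have passed the filter, and 242 of the 1033 higher calls were among them. The lower side holds such genes as well: 282 genes passed only through the double-negative libraries, IRX1, CDX2 and WNT6 below among them. How many of the 719 lower calls were of this kind is not given here. In what follows, counts of a gene list should be read against the shares of 7.33% and 5.1% and the median of 0.02. Where groups are said not to overlap, this describes the values only. The share of all genes without overlap is not given here, and with so few libraries a lack of overlap is weak evidence.

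**Figure D1:**
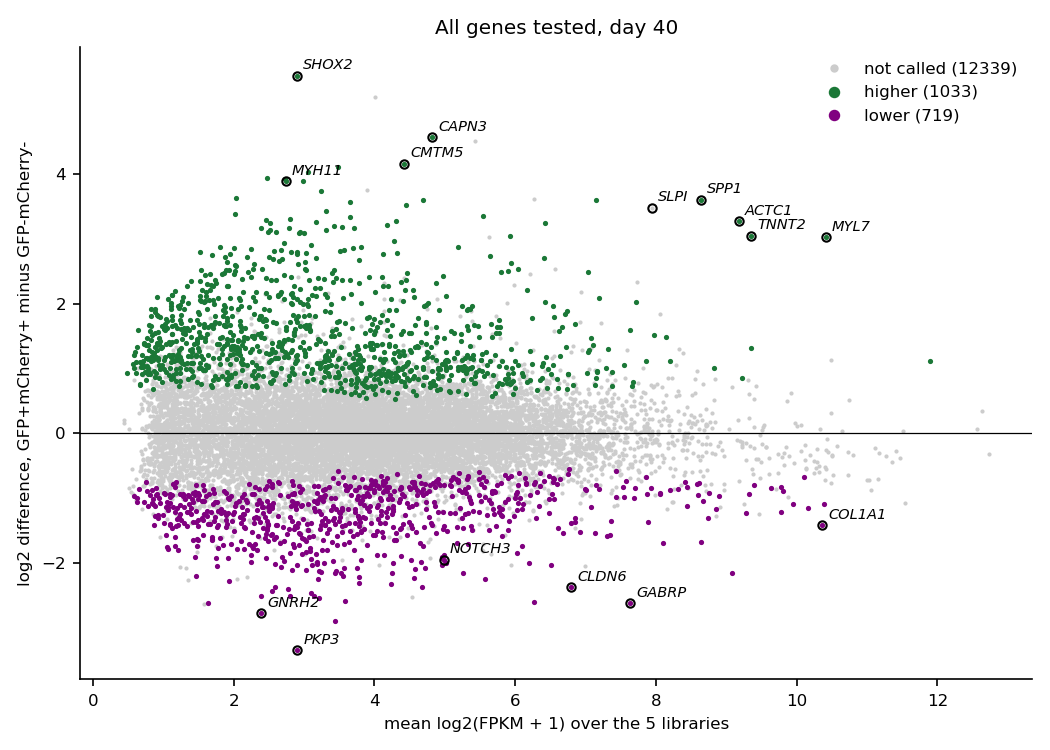
Difference between GFP+mCherry+ and double-negative cells of day 40 on the log2(FPKM + 1) scale (vertical axis) against the mean level over the 5 libraries (horizontal axis), with 1 point for each of the 14091 genes; called genes are coloured by direction (green higher, purple lower) and genes of the text are named. The 1033 higher genes reach further from 0 than the 719 lower ones, with SHOX2 at 5.51 and PKP3 at -3.34.

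SHOX2 (ENSG00000168779, hg19 chr3:157814948-157824292), the reporter gene and the transcription factor that specifies the node, was the check on the sort. It read 58.5 and 90.2 FPKM in the GFP+mCherry+ libraries and 1.32, 0.253 and 0.447 in the double-negative ones, a difference of 5.51 ± 0.36 (adjusted p = 9.44e-07). GFP-mCherry+ cells held 1.39, 2.41 and 1.81 FPKM. The groups were far apart, and the difference was the largest of all called genes. MYH6, the atrial myosin heavy chain, read 384 and 203 FPKM against 41.9, 6.64 and 4.76. The groups did not overlap, but the difference of 4.50 ± 1.81 did not pass (adjusted p = 0.111); MYH6 was listed at 0 in library 17 of the GFP-mCherry+ cells, beside 628 and 520 in the other 2, and with that value set to missing the adjusted p was 0.000318. Library 12 thus held more MYH6 than the other double-negative libraries, and the same library led for most heart muscle genes below.

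The labelled identity was checked against markers of each cell type. All 10 sinoatrial markers reached 1 FPKM in every GFP+mCherry+ library, with a sum of 227 to 235 FPKM, and 7 of them did so in every double-negative library, with a sum of 43 to 119. All 10 cardiomyocyte markers reached it in both groups, with sums of 8560 to 13823 FPKM in GFP+mCherry+, 769 to 3716 in double-negative and 26256 to 38453 in GFP-mCherry+ cells. The double-negative cells thus held heart muscle RNA in every library. Markers of other cells were also present in the GFP+mCherry+ libraries. All 8 fibroblast markers reached 1 FPKM, with a sum of 11382 to 12379 FPKM against 11281 to 23092 in double-negative cells. All 7 epithelial markers reached it, at 405 to 620 against 845 to 1626 FPKM, and so did 5 of 7 endoderm and liver markers, at 455 to 540 against 758 to 1664. Of 6 macrophage markers, 5 reached it, at 89 to 230 against 18.7 to 28.9 FPKM. Of 4 endothelial markers, 2 reached it, at 209 to 232 against 70.5 to 146 FPKM, and KDR, which early mesoderm also makes, held 221 and 200 of that sum. Of 3 pluripotency markers, NANOG was listed at 0 in both GFP+mCherry+ libraries and POU5F1 lay under 0.1 FPKM in all 5. The third, LIN28A, read 0.35 and 1.09 FPKM against 0.604, 0.974 and 2.08. The part these cells had in the differences below was not tested.

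**Figure D2:**
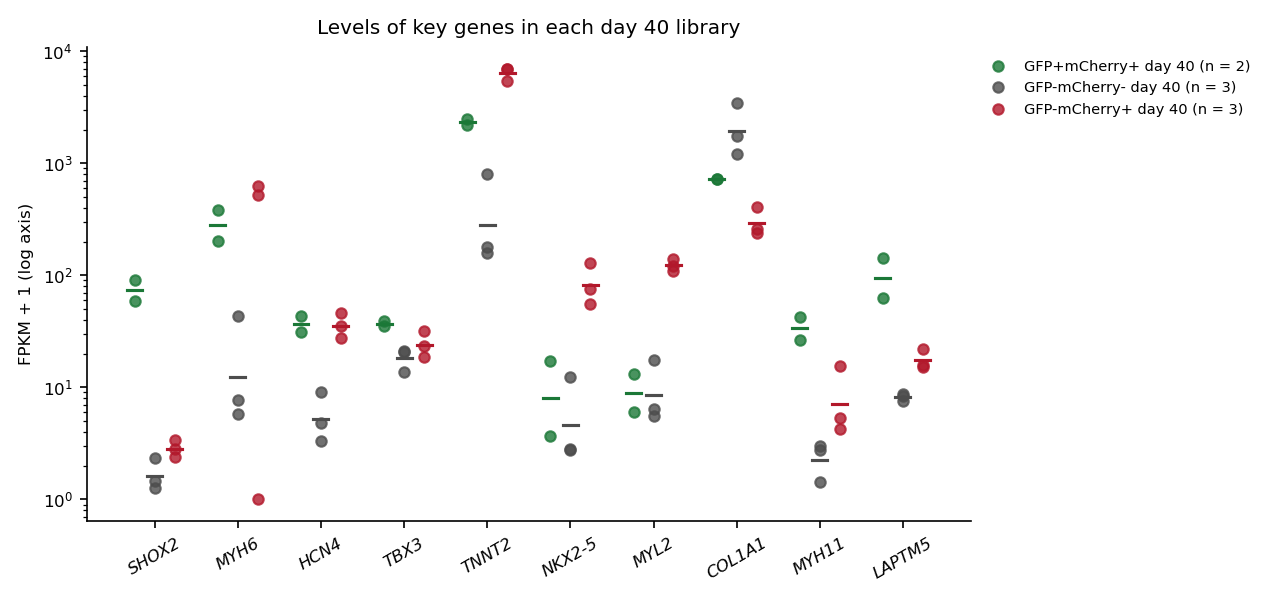
FPKM + 1 on a log axis of 10 genes in each library of day 40 (1 point for each library) in GFP+mCherry+ (green), double-negative (grey) and GFP-mCherry+ cells (red), with the mean on the log scale as a bar, left out where a library is listed at 0. SHOX2 and HCN4 stand apart between GFP+mCherry+ and double-negative cells, while the points of NKX2-5 and MYL2 overlap.

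Among transcription factors and other markers of the node, 7 of 20 were called higher and 0 lower, with a median difference of 0.50. SHOX2, used for the sort, is 1 of the 7. The list was not particular to GFP+mCherry+ cells. It summed to 655.2 to 680.8 FPKM there, 357.9 to 521.7 in double-negative and 775.4 to 1031 in GFP-mCherry+ cells. Against the same double-negative libraries, GFP-mCherry+ cells had 9 of the 20 called higher and 0 lower (1893 and 2744 of all 14091 genes). Between GFP+mCherry+ and GFP-mCherry+ cells, 2 were higher and 3 lower in the former. CPNE5, a calcium-binding copine, read 51.2 and 57.6 FPKM against 7.99, 2.75 and 2.04, a difference of 3.56 ± 0.39 (adjusted p = 6.26e-05). TBX5, which patterns the sinus venosus and atria, read 50.7 and 46.7 against 16.7, 5.56 and 14.1 (2.04 ± 0.37, adjusted p = 0.00241). VSNL1, a neuronal calcium sensor found in the node, read 20.3 and 15.4 against 2.68, 2.79 and 3.13 (2.28 ± 0.39, adjusted p = 0.00164). In all 3 genes each GFP+mCherry+ library lay above each double-negative one by a wide margin. TBX3, the repressor of the chamber programme in the conduction system, read 38.2 and 34.0 FPKM against 20.2, 12.8 and 19.7. Its difference of 1.02 ± 0.28 passed (adjusted p = 0.0252). MEF2A (1.03) and MEF2C (1.40), general muscle factors, completed the list of called genes. TBX3 was no longer called without library 10, 13 or 15 (adjusted p = 0.0892 to 0.115), nor MEF2A without library 13 (0.064), nor MEF2C without library 10, 13, 15 or 18 (0.0505 to 0.0986), and the list held 4 called genes without library 13.

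ISL1 and TBX18 were not called. ISL1, the second heart field factor kept on in the node, read 11.0 and 8.19 FPKM against 3.82, 4.32 and 6.77, with no overlap but an adjusted p of 0.111 (0.85 ± 0.34). TBX18, which builds the node's head and is also an epicardial factor, read 25.8 and 23.6 against 44.4, 12.8 and 73.7. The GFP+mCherry+ libraries lay inside the double-negative range (-0.49 ± 0.69, adjusted p = 0.674). Of 15 chamber transcription factors, 0 were called higher and 1 lower, with a median of 0.18. The lower one, IRX1, passed the filter only through the double-negative libraries. At an unadjusted p under 0.05, limma's test gave 2 higher and 2 lower. NKX2-5, the chamber factor that SHOX2 opposes, read 16.3 and 2.68 FPKM against 11.4, 1.77 and 1.79 (0.80 ± 0.61, adjusted p = 0.413). Library 10 of the GFP+mCherry+ cells and library 12 of the double-negative cells were the high ones, and GFP-mCherry+ cells held 128, 54.9 and 73.8. IRX1, an Iroquois homeobox factor, was the lower gene, at 0.484 and 0.414 FPKM against 2.86, 4.09 and 9.87 (-2.04 ± 0.47, adjusted p = 0.0103, and 0.0874 without library 13).

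Pacemaker and conduction channels were higher in GFP+mCherry+ cells in 9 of 22 genes and lower in 1, with a median of 0.98. The list summed to 185.5 to 243 FPKM there, 86.97 to 137.6 in double-negative and 293.7 to 586.9 in GFP-mCherry+ cells. HCN4, the main channel of the pacemaker current, read 42.2 and 30.5 FPKM in GFP+mCherry+ and 8.03, 2.34 and 3.76 in double-negative cells, a difference of 2.82 ± 0.37 (adjusted p = 0.000242). GFP-mCherry+ cells held 45.5, 34.0 and 26.7 FPKM, levels that overlapped with those of the GFP+mCherry+ libraries. CACNA1D, a calcium channel of pacemaker cells, read 14.3 and 19.3 against 2.31, 1.33 and 1.48 (2.72 ± 0.31, adjusted p = 9.29e-05). For both channels the lowest GFP+mCherry+ library was well above the highest double-negative one. KCNJ3, the channel that acetylcholine opens in atrial and nodal cells, was 1.59 higher (adjusted p = 0.00821). KCNJ2, the inward rectifier that steadies the resting potential of working muscle and is low in the node, was the lower gene, at 1.36 and 1.50 against 5.61, 3.35 and 7.64 FPKM (-1.37 ± 0.30, adjusted p = 0.00879). Without library 13 the list held 4 higher genes, and KCNJ3 and KCNJ2 had adjusted p-values of 0.102 and 0.06.

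Of 13 connexin and intercalated disc genes, 2 were called higher and 1 lower, with a median of 0.33. GJA1, the connexin of working muscle that is also made by many other cells, read 158 and 126 FPKM against 131, 192 and 127, and the groups overlapped (-0.07 ± 0.29, adjusted p = 0.904). GJA5, the connexin of atrium and fast conduction tissue, read 12.4 and 13.5 against 6.19, 2.89 and 2.72 (1.57 ± 0.37, adjusted p = 0.012). JUP, plakoglobin, which desmosomes of heart and epithelium share, was lower at 38.7 and 26.3 against 53.9, 82.2 and 107 (-1.26 ± 0.31, adjusted p = 0.0148). Without library 13 the list had 0 called genes, with adjusted p-values of 0.106 for GJA5 and 0.199 for JUP; without library 18 they were 0.052 and 0.0684.

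Of 41 genes of the thick filament, thin filament and Z disc, 21 were called higher and 1 lower, with a median of 1.81. Summed over the 3 lists, the GFP+mCherry+ libraries held 11643 to 17875 FPKM (2.04% to 3.1% of the library), the double-negative ones 2532 to 6993 (0.443% to 1.19%) and the GFP-mCherry+ ones 36554 to 53628 (6.1% to 8.4%). Library 12 gave the top of the double-negative range. The thick filament had 10 of 14 genes higher and 0 lower (median 2.14), the thin filament 3 of 11 higher and 1 lower (1.29), and the Z disc 8 of 16 higher and 0 lower (1.27). Leaving out library 10 left 11 higher genes over the 3 lists, leaving out library 18 left 13, and leaving out library 12 gave 27. The thick filament had 4 higher genes without library 10, 15 or 18 and 6 without library 13, the Z disc 4 without library 10, and the thin filament 7 without library 12.

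TNNT2, cardiac troponin T, read 2490 and 2180 FPKM in GFP+mCherry+ and 796, 157 and 177 in double-negative cells (3.05 ± 0.52, adjusted p = 0.00158), beside 7001, 5404 and 6929 in GFP-mCherry+ cells. MYL7, the atrial myosin light chain, read 6433 and 3566 against 1423, 342 and 418 (3.02 ± 0.53, adjusted p = 0.00204), beside 16068, 7773 and 14488. ACTC1, cardiac alpha-actin, read 2752 and 1842 against 689, 98.9 and 183 (3.27 ± 0.61, adjusted p = 0.00291), beside 5967, 8392 and 12738. The order was the same in these 3 genes: GFP-mCherry+ libraries highest, then GFP+mCherry+, then library 12, then libraries 15 and 18. MYOM2, an M-band protein, read 58.2 and 39.1 against 6.94, 5.20 and 2.29 (3.16 ± 0.47, adjusted p = 0.00057). TTN, the giant spring of the sarcomere, was 2.79 higher and SYNPO2L, a Z disc protein, 2.53 higher. LDB3, the Z disc protein cypher, read 62.3 and 33.7 FPKM against 27.4, 4.01 and 5.48 (2.27 ± 0.52, adjusted p = 0.0101, and 0.0733 without library 10). MYL2, the ventricular light chain, read 12.1 and 5.03 FPKM against 16.6, 5.43 and 4.55, with the groups overlapping (0.05 ± 0.54, adjusted p = 0.962), while GFP-mCherry+ cells held 109, 120 and 140. TNNT1, slow skeletal troponin T, which is also made by mesothelium, was the lower gene, at 59.9 and 66.9 against 153, 155 and 258 (-1.52 ± 0.40, adjusted p = 0.0222). Its call was lost without library 10, 13 or 18 (adjusted p = 0.0804 to 0.117) and after the GC correction (0.0606).

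The promoters of 3 of these genes, and that of MYLK described with smooth muscle below, are printed because each holds a CArG box, the element bound by serum response factor that muscle genes share. Each is the 250 bases before the transcription start in RefSeq (GRCh38.p14), written 5′ to 3′ on the gene's strand with the box in capitals. ACTC1 lies at chr15:34795550-34795799 (minus strand, box 109 to 100 bases before the start), MYL7 at chr7:44141333-44141582 (minus strand, 61 to 52), LDB3 at chr10:86668261-86668510 (plus strand, 57 to 48) and MYLK at chr3:123620549-123620798 (minus strand, 94 to 85).
ACTC1: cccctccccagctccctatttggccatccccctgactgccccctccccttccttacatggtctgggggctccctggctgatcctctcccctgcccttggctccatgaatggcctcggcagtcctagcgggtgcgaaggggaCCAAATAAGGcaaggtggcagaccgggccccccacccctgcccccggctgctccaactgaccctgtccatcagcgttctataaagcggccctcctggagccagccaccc
MYL7: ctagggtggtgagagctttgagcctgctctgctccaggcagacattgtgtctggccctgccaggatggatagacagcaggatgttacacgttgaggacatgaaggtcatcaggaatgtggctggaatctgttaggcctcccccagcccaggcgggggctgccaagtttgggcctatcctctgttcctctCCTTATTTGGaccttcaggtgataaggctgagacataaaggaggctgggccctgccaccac
LDB3: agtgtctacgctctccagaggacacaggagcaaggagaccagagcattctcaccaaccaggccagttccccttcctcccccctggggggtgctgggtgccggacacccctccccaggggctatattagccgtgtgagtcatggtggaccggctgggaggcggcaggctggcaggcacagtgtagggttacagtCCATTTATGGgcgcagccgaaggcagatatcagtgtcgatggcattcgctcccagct
MYLK: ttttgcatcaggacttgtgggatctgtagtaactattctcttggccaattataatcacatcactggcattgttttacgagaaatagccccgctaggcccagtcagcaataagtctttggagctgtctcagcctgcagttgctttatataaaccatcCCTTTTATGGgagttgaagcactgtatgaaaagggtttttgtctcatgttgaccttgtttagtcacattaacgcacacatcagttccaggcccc
The box was searched on both strands of all promoters of this length, and 312 of 27305 held it (1.14%). Promoters were matched for 10530 of the genes compared, of which 117 held it (1.11%). Among the sarcomere and Z disc genes, 29 of 41 were matched and 6 held it (20.7%): ACTA1, ACTC1, FHL2, LDB3, MYL7 and MYOM1. Among smooth muscle genes it was 2 of 12 (16.7%), ACTG2 and MYLK, and among macrophage and blood genes 0 of 13. These are descriptions of letters in a window, not of bound sites.

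Calcium cycling, which drives both contraction and the calcium clock of pacemaker cells, had 7 of 17 genes called higher and 0 lower, with a median of 1.09. ATP2A2, the calcium pump of the internal store, read 456 and 327 FPKM against 174, 98.4 and 118 (1.60 ± 0.25, adjusted p = 0.00103). PLN, phospholamban, which holds that pump back, read 897 and 443 against 182, 30.6 and 23.6 (3.59 ± 0.62, adjusted p = 0.00167). SLC8A1, the sodium-calcium exchanger that feeds the pacemaker depolarisation, read 90.4 and 47.1 against 20.4, 3.62 and 5.19 (2.97 ± 0.48, adjusted p = 0.00109). All 3 were highest in library 10 and lowest in libraries 15 and 18, and the groups did not overlap. The list held 4 higher genes without library 10. Of 8 natriuretic peptides and secreted heart products, 2 were higher and 1 lower, with a median of 0.12 (1 higher and 0 lower without library 13 or 18). NPPA, atrial natriuretic peptide, which chamber muscle makes and the node largely lacks, read 339 and 134 FPKM against 79.7, 11.7 and 16.3 (3.04 ± 0.56, adjusted p = 0.0027), beside 1177, 1359 and 1758 in GFP-mCherry+ cells.

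Receptors through which nerves and angiotensin act on the heart had 4 of 13 genes called higher and 2 lower, with a median of 0.92. Of the 10 genes that would have passed the filter without the GFP+mCherry+ libraries, 2 were higher. ADRB1, the beta-1 adrenergic receptor, which passed only through those libraries, read 2.42 and 2.53 FPKM against 0.163, 0.0865 and 0.0362, a difference of 1.67 ± 0.19 (adjusted p = 8.08e-05). GFP-mCherry+ cells held 0.236, 0.106 and 0.169, so both GFP+mCherry+ libraries were above the other 6 of that day. CHRM2, the muscarinic receptor that slows the heart, read 27.0 and 18.5 against 11.4, 6.61 and 7.85 (1.31 ± 0.27, adjusted p = 0.00606, and 0.0522 without library 10). The list had 2 higher genes without library 10. GNAO1, the Go alpha subunit that couples such receptors, was 2.16 higher (adjusted p = 0.000935). ADRA1B, an alpha-1 receptor, was lower at 2.76 and 3.78 against 20.2, 10.1 and 19.5 (-1.99 ± 0.36, adjusted p = 0.00239, and 0.0607 after the GC correction).

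Energy genes gave calls in some lists and not in others. Of 46 oxidative phosphorylation genes, 0 were called by limma (7 higher and 1 lower at an unadjusted p under 0.05), with a median of 0.23 and 34 of the 46 above 0; 6 were called higher without library 12 and 1 lower without library 10. Of 26 fatty acid oxidation genes, 6 were called higher and 0 lower, with a median of 0.30, and 2 were called without library 18. LPL, the lipase that frees fatty acids for muscle and is also made by macrophages, read 7.98 and 6.59 FPKM against 1.56, 0.644 and 1.18 (1.98 ± 0.33, adjusted p = 0.00146). PDK4, which turns glucose oxidation down, was 1.92 higher (adjusted p = 0.00229). Of 7 creatine kinase and oxygen store genes, 2 were higher, and 1 without library 10, 13, 15 or 18. GATM, which makes the creatine precursor, was 1.57 higher (adjusted p = 0.00389). MB, myoglobin, was 2.77 higher (adjusted p = 0.04) although its groups overlapped, at 106 and 27.3 against 41.7, 2.70 and 2.35, and it was not called without library 10, 13, 15 or 18 (0.0551 to 0.249). Glycolysis had 3 of 23 genes higher, with a median of 0.05 like that of all genes; the 3 fell to 1 without library 10 or 13 and to 0 without library 15 or 18.

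**Figure D3:**
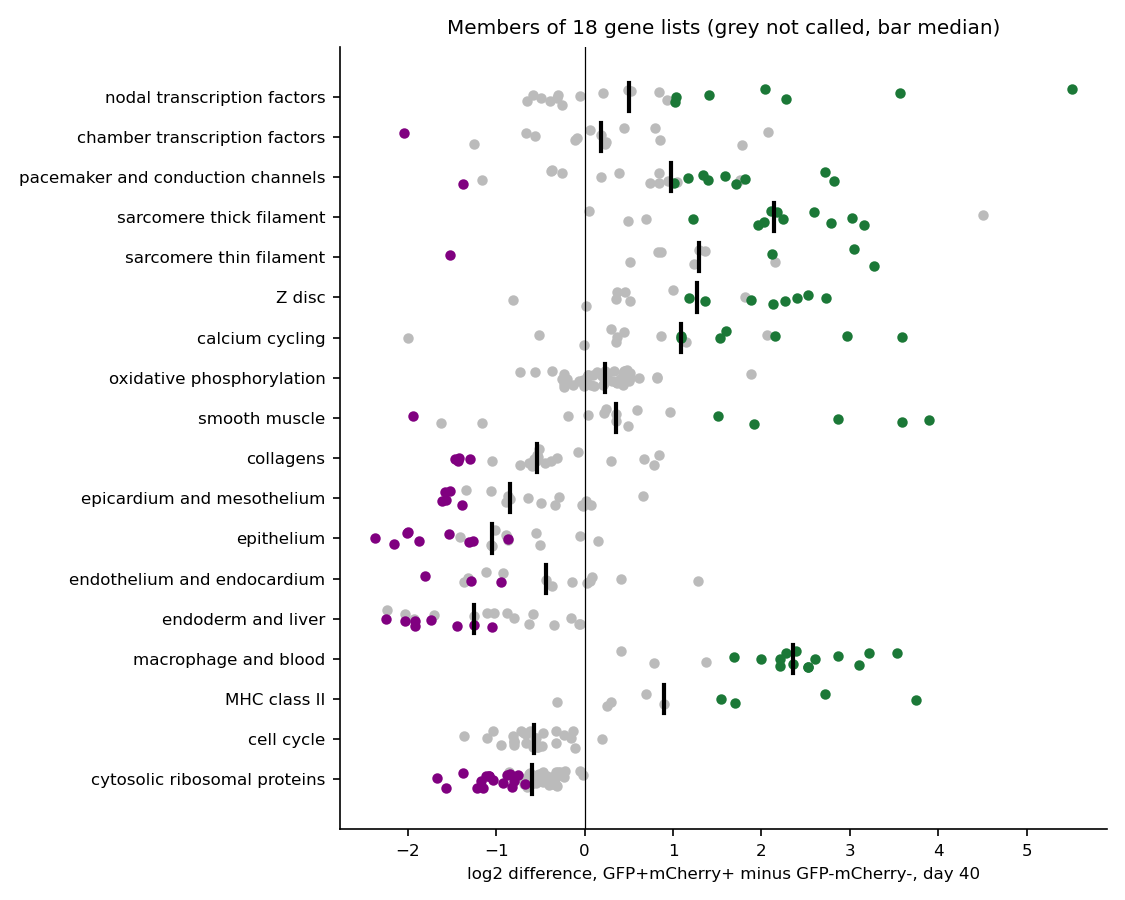
Difference between GFP+mCherry+ and double-negative cells of day 40 on the log2(FPKM + 1) scale (horizontal axis) for the tested members of 18 gene lists, 1 point for each gene, green where called higher, purple where called lower and grey where not called, with the list's median as a bar. The medians run from -1.25 for endoderm and liver genes to 2.36 for macrophage and blood genes, beside 0.02 over all genes.

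Smooth muscle genes split. Of 17, 5 were called higher and 1 lower, with a median of 0.36, and 3 were higher without library 13. MYH11, the smooth muscle myosin heavy chain, read 41.8 and 25.5 FPKM against 1.74, 0.416 and 2.01 (3.89 ± 0.47, adjusted p = 0.000123), beside 3.27, 4.32 and 14.5 in GFP-mCherry+ cells. MYLK, the kinase that starts smooth muscle contraction, whose promoter is printed above, read 129 and 110 against 11.0, 14.2 and 23.6 (2.87 ± 0.40, adjusted p = 0.000373). ACTA2, smooth muscle actin, did not follow: it read 625 and 527 FPKM against 204, 205 and 606, and library 18 reached into the GFP+mCherry+ range (0.96 ± 0.54, adjusted p = 0.25). NOTCH3, the Notch receptor of pericytes and vessel walls, was the lower gene, at 12.5 and 13.7 against 36.8, 56.1 and 72.9 (-1.95 ± 0.37, adjusted p = 0.00346).

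Matrix genes were abundant in both groups. Of 21 collagens, 0 were called higher and 4 lower, with a median of -0.54 and sums of 10389 to 11470 FPKM against 11471 to 22884; after the GC correction 1 was lower. COL1A1, the main fibrillar collagen, read 730 and 721 FPKM against 1216, 3421 and 1752 (-1.42 ± 0.34, adjusted p = 0.0124), and was not called without library 13 (0.0973) or after the GC correction (0.0643). COL8A1, a vessel and valve collagen, read 3.09 and 2.45 against 10.5, 10.4 and 7.55 (-1.47 ± 0.27, adjusted p = 0.003). Leaving out library 10, 15 or 18 left 2 lower collagens and leaving out library 13 left 1. Of 27 fibroblast glycoproteins and proteoglycans, 3 were lower, with a median of -0.17, and 0 without library 13 or 18, 1 without library 15 and 1 after the GC correction. Of 19 epicardium and mesothelium genes, 0 were higher and 5 lower, with a median of -0.84. MSLN, the mesothelial surface protein mesothelin, read 1.64 and 1.92 against 6.22, 7.13 and 9.37 (-1.61 ± 0.29, adjusted p = 0.00242). The epicardium list had 2 lower genes without library 10, and 1 without library 13 or 18.

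Epithelial genes had the highest share of lower calls of the 41 lists. Of 20, 9 were called lower and 0 higher, with a median of -1.05. CLDN6, a tight junction protein of early epithelia, read 42.4 and 38.3 FPKM against 174, 158 and 350 (-2.37 ± 0.33, adjusted p = 0.000394). ST14, matriptase, an epithelial surface protease, read 2.54 and 3.38 against 8.75, 15.7 and 23.2 (-2.00 ± 0.42, adjusted p = 0.00594). EPCAM, the adhesion molecule used to sort epithelium, read 51.4 and 105 against 216, 177 and 260 (-1.54 ± 0.37, adjusted p = 0.013). All 3 were lower in both GFP+mCherry+ libraries, yet CLDN6 and EPCAM were still at 38.3 FPKM or more there. Library 13 held more EPCAM than library 10, and without library 10 EPCAM was not called (0.122), nor without library 18 (0.0533). The list had 2 lower genes without library 10 and 5 without library 18.

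A list of secretory, lung-like epithelium gave no call in the fit to all 17 libraries. Of its 16 genes 6 were tested and 0 called by limma, with a median of 0.88 and 2 higher at an unadjusted p under 0.05. SLPI, a secreted protease inhibitor, read 1083 and 1004 FPKM against 65.0, 199 and 61.0 (3.48 ± 1.27, adjusted p = 0.0826). SFTPD, surfactant protein D, read 260 and 160 against 25.1, 76.1 and 25.0 (2.45 ± 1.21, adjusted p = 0.191). SLC34A2, the phosphate transporter of alveolar cells, read 220 and 148 against 62.0, 80.9 and 42.6 (1.58 ± 0.69, adjusted p = 0.139). The groups did not overlap in any of the 3, which is a description and not a test. With only the 5 libraries in the fit, limma's test called all 3 (adjusted p = 0.00991, 0.0281 and 0.0306 in the same order). The list summed to 1580 and 1341 FPKM in GFP+mCherry+ libraries 10 and 13 of day 40, and at day 25 to 1213 in library 1 beside 84.52 and 153 in libraries 4 and 7.

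Of 23 endoderm and liver genes, 0 were called higher and 8 lower, with a median of -1.25 and 0 of the 23 above 0. CDX2, the master factor of the intestine, read 0.524 and 0.907 FPKM against 2.65, 9.33 and 6.08 (-1.92 ± 0.36, adjusted p = 0.00316). It passed the filter only through the double-negative libraries. APOA1, the main protein of high-density lipoprotein, read 12.3 and 13.9 against 30.8, 84.9 and 53.7 (-1.92 ± 0.44, adjusted p = 0.0107, and 0.0701 without library 13). RBP4, the retinol carrier of blood, read 2.39 and 2.83 against 9.04, 17.4 and 25.9 (-2.24 ± 0.53, adjusted p = 0.0119); its call was lost without library 10, 13 or 18 (0.0509 to 0.0766). The 8 lower genes became 5 without library 10 or 18, 4 without library 15 and 2 without library 13. Of 15 endothelial and endocardial genes, 3 were lower and 0 higher, with a median of -0.44. EGFL7, an endothelial matrix protein, read 4.13 and 2.14 against 9.71, 15.3 and 14.8 (-1.81 ± 0.42, adjusted p = 0.0109). Without library 13 the endothelial list had 0 called genes and EGFL7 an adjusted p of 0.158; without library 15 it had 5, and after the GC correction 1.

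**Figure D4:**
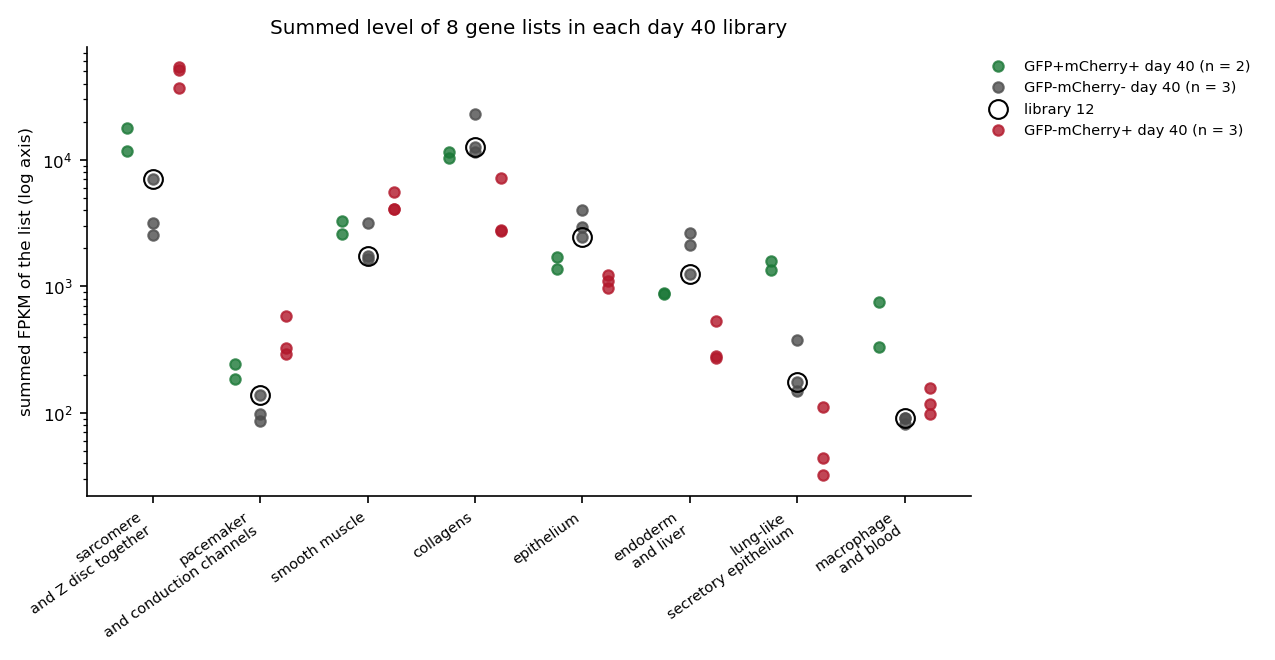
Summed FPKM of 8 gene lists on a log axis in each library of day 40 (1 point for each library) for GFP+mCherry+ (green), double-negative (grey, library 12 ringed) and GFP-mCherry+ cells (red). Sarcomere sums are ordered GFP-mCherry+, GFP+mCherry+, double-negative with library 12 the highest of its group, and the macrophage and blood sums of the GFP+mCherry+ libraries (330 and 755.2) lie above all others.

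Most macrophage and blood genes that were tested were higher in GFP+mCherry+ cells. Of 17 tested, out of 22 listed, 14 were called higher and 0 lower, with a median of 2.36. PTPRC, SPI1 and ITGAM would not have passed the filter on the double-negative libraries alone; of the other 14 tested genes 11 were called, with a median of 2.46. Their sum was 330 to 755.2 FPKM against 81.84 to 91.76 in double-negative and 97.16 to 158.1 in GFP-mCherry+ cells, which is 0.0578% to 0.131% of a GFP+mCherry+ library. SPI1, the factor that specifies myeloid cells, read 9.67 and 4.92 FPKM against 0.449, 0.688 and 1.06 (2.21 ± 0.35, adjusted p = 0.00104). PTPRC, the pan-leukocyte antigen CD45, read 8.92 and 8.43 against 1.28, 0.845 and 0.880 (2.28 ± 0.35, adjusted p = 0.000815). FCGR3A, an Fc receptor of macrophages and natural killer cells, read 31.0 and 11.9 against 1.16, 1.79 and 1.21 (3.10 ± 0.38, adjusted p = 0.000149). LAPTM5, a lysosomal protein of blood cells, read 141 and 62.1 against 7.78, 7.37 and 6.55 (3.53 ± 0.50, adjusted p = 0.000383). Library 10 was the higher of the GFP+mCherry+ libraries in all 4 genes, and CD163, the scavenger receptor of macrophages, followed at 22.4 and 8.41 against 2.07, 2.59 and 1.06. Without library 10 the list had 9 called genes, and with a pseudocount of 0.1 also 9.

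Genes of antigen presentation by MHC class II, which macrophages and other leukocytes carry, were higher as well. Of 9, 4 were called higher and 0 lower, with a median of 0.90. HLA-DRA read 15.8 and 11.0 FPKM against 2.09, 1.08 and 0.549 (2.72 ± 0.27, adjusted p = 3.54e-05). HLA-DMB, which helps load peptides, read 64.3 and 29.6 against 3.18, 3.96 and 0.794 (3.74 ± 0.48, adjusted p = 0.000211). Outside the lists, MS4A7, a membrane protein of macrophages, read 42.9 and 17.6 against 0.674, 1.17 and 0.764 (3.94 ± 0.37, adjusted p = 1.75e-05), and the chemokine CCL4 (3.89) and ADAMDEC1, a protease of mature macrophages (3.63), rose as well. SRGN, the proteoglycan of secretory granules in blood cells, read 106 and 34.2 against 4.20, 2.69 and 1.39 (4.10 ± 0.54, adjusted p = 0.000244). SPP1, osteopontin, read 3082 and 1031 FPKM against 120, 143 and 180 (3.60 ± 0.75, adjusted p = 0.00622, and 0.0578 without library 10), beside 197, 411 and 576 in GFP-mCherry+ cells. The part of macrophage RNA in these differences was not tested.

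The other genes with the largest higher values were of mixed kinds. CAPN3, a muscle calpain, read 147 and 239 FPKM against 9.30, 7.54 and 4.72 (4.56 ± 0.36, adjusted p = 6.42e-06). CMTM5, a membrane protein of the chemokine-like factor family, read 142 and 101 against 12.5, 2.29 and 5.92 (4.16 ± 0.49, adjusted p = 0.000121). APOC2, the apolipoprotein that activates lipoprotein lipase, read 48.1 and 38.5 against 1.64, 1.64 and 1.87 (4.02 ± 0.41, adjusted p = 3.98e-05). The rule that picked these genes required groups that did not overlap. In all 3 the lower GFP+mCherry+ library was several times the highest double-negative one. ZNF385B, a zinc finger protein, was 3.93 higher (adjusted p = 0.000128).

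The largest lower differences reached -3.34, less far from 0 than the largest higher ones. PKP3, a desmosomal plakophilin, read 0.627 and 1.13 FPKM against 13.0, 10.3 and 41.6 (-3.34 ± 0.48, adjusted p = 0.00046). GABRP, a GABA receptor subunit of epithelial tissues, read 42.2 and 103 against 409, 283 and 594 (-2.61 ± 0.54, adjusted p = 0.00569, and 0.0567 without library 10). AGR2, a folding factor of mucus-secreting cells, read 1.32 and 1.57 against 16, 11.3 and 11.8 (-2.51 ± 0.36, adjusted p = 0.000476). KLK5, a skin protease, read 2.49 and 1.76 against 17.5, 13.8 and 18.9 (-2.5 ± 0.43, adjusted p = 0.00162). The rule that picked these genes required groups that did not overlap, so their separation is no finding. Library 18 was the highest for PKP3, GABRP and KLK5. GJB2, the connexin of epithelia and inner ear, was lower by -2.40, LYPD6B by -2.54 and CACNG4, a calcium channel subunit, by -2.43. PAEP (-2.57), a secreted lipocalin, TMEFF2 (-2.62) and ECSCR (-2.51), an endothelial surface protein, were not called without library 13 (adjusted p = 0.113, 0.0551 and 0.252). GNRH2 and TRAPPC5 were called at -2.77 and -2.46 but not without library 13, 15 or 18, with adjusted p-values of 0.0595 to 0.293, nor GNRH2 without library 10 (0.0596).

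Nerve and neural crest genes gave a few calls. Of 13 tested neuronal genes, 3 were higher and 0 lower, with a median of 0.21; 1 was higher without library 13 or 18. PHOX2A, a factor of autonomic neurons that passed the filter only through the GFP+mCherry+ libraries, read 1.78 and 2.36 FPKM against 0.391, 0.137 and 0.0417 (1.37 ± 0.20, adjusted p = 0.00046). STMN2, a growth cone protein, read 123 and 227 against 23.2, 72.4 and 13.8 (2.5 ± 0.76, adjusted p = 0.0411); without library 10, 12, 13 or 18 it was not called (0.0593 to 0.311). Of 10 neural crest, glia and melanocyte genes, 3 were higher and 2 lower. PMEL, a melanosome protein, read 186 and 179 against 30.5, 28.7 and 26.8 (2.63 ± 0.48, adjusted p = 0.00241) and MITF, the factor of melanocytes, which heart muscle also makes, was 1.46 higher (adjusted p = 0.00212). The other melanocyte markers were low: TYR was listed at 0 in library 10 and MLANA at 0 in library 13, and SOX10, the factor of crest and glia, stayed under 0.1 FPKM in all 5 libraries. TFAP2B and TFAP2A, crest and surface epithelium factors, were lower by -1.71 and -1.87, TFAP2A with an adjusted p of 0.0817 without library 13. The list of cartilage, bone and skeletal muscle had 1 of 7 genes higher, and 2 without library 10 or 15. CHRNA1, the acetylcholine receptor subunit of skeletal muscle, which also passed only through them, read 2.97 and 3.09 FPKM against 0.121, 0.214 and 0.0703 (1.83 ± 0.18, adjusted p = 3.98e-05).

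In the BMP list 3 of 23 genes were called higher and 1 lower, with a median of 0.05, and in the Wnt list 1 of 28 was higher and 6 lower, with a median of -0.38. BMP4, a ligand of the node and sinus venosus, read 103 and 105 FPKM against 31.2, 56.0 and 41.6 (1.30 ± 0.25, adjusted p = 0.00411), beside 12.7, 17.8 and 13.9 in GFP-mCherry+ cells. BMP2 (1.35) and BMP7 (1.32) were the other higher genes of the BMP list, and ID1, a BMP target, was the lower one at 34.1 and 33.4 against 94.5, 73.7 and 65.4 (-1.17 ± 0.30, adjusted p = 0.0202). BMP2 was not called without library 10, 13, 15 or 18 (0.0519 to 0.0894), BMP7 without library 10, 15 or 18 (0.0978 to 0.259) and ID1 without library 10 or 13 (0.0601 and 0.136); the list held 1 higher gene without library 10, 15 or 18. WNT5A, a non-canonical Wnt ligand of the venous pole, read 39.2 and 35.1 against 12.0, 8.92 and 12.2 (1.67 ± 0.26, adjusted p = 0.000796). WNT6, a ligand of surface epithelia, was listed at 0 in library 10 and read 0.215 in library 13, against 2.55, 4.39 and 5.84 (-2.20 ± 0.31, adjusted p = 0.000373). It passed the filter only through the double-negative libraries. WNT5A was the higher gene of the Wnt list. The 6 lower genes became 1 without library 13, 2 without library 18 and 4 without library 12. Of 15 retinoic acid genes, 2 were lower, with a median of -0.59 (0 without library 13, 1 without library 12 or 18). RDH10, the enzyme that starts retinoic acid synthesis, read 38.8 and 27.0 against 158, 64.2 and 131 (-1.74 ± 0.38, adjusted p = 0.00763, and 0.111 without library 13). Of 19 HOX genes, 2 were lower and 0 higher (1 lower without library 10, 12 or 18).

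Genes tied to anthracycline handling and heart toxicity, the subject of the series title, gave 4 higher and 2 lower of 22, with a median of 0.05. ABCC5, a drug exporter, read 42.1 and 51.1 FPKM against 20.1, 12.1 and 20.9 (1.38 ± 0.28, adjusted p = 0.00469). SLC28A3, a nucleoside transporter, read 11.7 and 17.8 against 2.37, 3.37 and 0.841 (2.37 ± 0.53, adjusted p = 0.00943). NCF4, an oxidase subunit of phagocytes that passed the filter only through the GFP+mCherry+ libraries, read 7.25 and 2.47 against 0.220, 0.538 and 0.322 (1.98 ± 0.29, adjusted p = 0.000547). ABCB1, the drug exporter P-glycoprotein, was lower at 1.71 and 4.06 against 16, 7.18 and 23.8 (-2.03 ± 0.42, adjusted p = 0.0059), and so was GSTP1, a glutathione transferase, at 270 and 226 against 430, 600 and 878 (-1.30 ± 0.27, adjusted p = 0.0057). Without library 13 ABCC5, SLC28A3 and GSTP1 were not called (0.0657, 0.117 and 0.0759), and the list had 2 higher and 1 lower; without library 10 ABCB1 was not (0.0543).

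Cytosolic ribosomal protein genes all lay below 0. Of 52, 17 were called lower and 0 higher, the median was -0.60, and 0 of the 52 lay above 0. They made up 5.66% to 6.77% of the GFP+mCherry+ libraries against 8.43% to 10.4% of the double-negative and 7.76% to 10.3% of the GFP-mCherry+ ones. RPS19 read 956 and 762 FPKM against 1931, 1714 and 1771 (-1.08 ± 0.23, adjusted p = 0.00628, and 0.101 without library 13). Without library 13 the list had 0 called genes, without library 15 it had 6 and without library 18 it had 5; after the GC correction it had 16. Cell cycle genes had 0 of 28 called by limma (3 lower at an unadjusted p under 0.05), with a median of -0.57 and 1 of the 28 above 0, and 1 lower without library 10. Immediate early genes had 1 of 22 called higher (2 without library 12), NR4A2, an orphan nuclear receptor, at 29.5 and 15.6 against 5.01, 3.62 and 1.99 (2.37 ± 0.34, adjusted p = 0.000502). Of 19 p53 targets 0 were called (5 higher and 3 lower at an unadjusted p under 0.05; 1 higher and 2 lower without library 12), of 19 interferon genes 2 were higher (0 without library 13 or 18, 1 without library 12, 5 without library 10), and of 16 complement genes 1 was higher, C2, which macrophages and liver make (1.51, adjusted p = 0.00282; 3 genes without library 10). Of 18 matrix proteases and inhibitors 2 were lower, 0 without library 10, 13 or 18 and 1 without library 15. Of 4 neural progenitor genes tested 0 were called by limma (1 higher at an unadjusted p under 0.05). Of 11 pluripotency and oncofetal genes 1 was higher, TDGF1, and 1 lower, L1TD1. TDGF1 would not have passed the filter on the double-negative libraries alone, and limma did not call it without library 12, 15 or 18.

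The same comparison at day 25 rests on 6 other libraries. Its genes were the same 14091, chosen on the 5 libraries of day 40, so genes present only at day 25 were not tested. With the filter over all libraries, 14845 genes were tested and 1641 called at day 25. It had 1527 called genes (10.8%), 828 higher (5.88%) and 699 lower (4.96%), with a median of -0.03; leaving out library 3, 4, 6, 7 or 9 gave 788 to 931 calls. Of the 1033 genes higher at day 40, 402 were called higher at day 25, which is 38.9% of the day 40 list and 48.6% of the day 25 list, and 6 were called lower. Of the 719 lower genes, 275 were called lower at day 25 (38.2% and 39.3%) and 4 higher. Without regard to calls, 88.3% of the higher and 91.9% of the lower genes had the same sign at day 25. The share of all genes compared with the same sign on both days is not given here, so these shares have no background beside them. SHOX2 differed by 5.90 at day 25 and 5.51 at day 40, CAPN3 by 5.16 and 4.56, MYH11 by 4.70 and 3.89, and HCN4 by 2.18 and 2.82. The sarcomere and Z disc lists had 29 of 41 genes higher at day 25 and 21 at day 40, with medians of 2.47 and 1.81, and in a direct test of the change by limma 0 of the 41 differed between the days (5 at an unadjusted p under 0.05).

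The change between the days was called in 174 genes (1.23%). The value was larger at day 40 in 137 (0.972%) and smaller in 37 (0.263%). Genes had been filtered on their levels at day 40, which can shift this split. With the filter over all libraries the change was called in 184 genes. With a pseudocount of 0.1 it was called in 6, and leaving out library 3, 4, 6, 7, 9, 15 or 18 gave 97 to 114. Macrophage and blood genes had 0 higher and 1 lower of 17 at day 25, with a median of 0.10, and 7 of the 17 passed the test of the change. Their sum at day 25 was 46.45 to 62.59 FPKM in GFP+mCherry+ and 56.94 to 63.58 in double-negative cells. HLA-DRA differed by -0.52 at day 25 and 2.72 at day 40, a change of 3.24 ± 0.36 (adjusted p = 0.00131). LCP2, an adaptor of leukocyte receptor signalling, read 29.7 and 14.3 FPKM against 1.34, 1.34 and 0.960 at day 40, and its difference went from -0.53 to 3.30, a change of 3.82 ± 0.45 (adjusted p = 0.00131). ITGAL, an integrin of leukocytes, read 10.3 and 10.8 against 0.324, 0.350 and 1.20, with a change of 3.15 ± 0.39 (adjusted p = 0.00143). The naming rule took the 6 genes with the smallest p for this change, so that those pass is no finding. Endoderm and liver genes went the other way, with 3 of 23 higher at day 25, 8 lower at day 40 and 8 passing the test of the change with a smaller value at day 40; CDX2 went from 0.85 to -1.92. Endothelial genes were lower at day 25 in 12 of 15, with a median of -1.97, and at day 40 in 3. CDH5, the endothelial cadherin, differed by -3.33 at day 25 and -1.12 at day 40. Of the 10 genes called on both days in opposite directions, ABI3, IL16, IL1B, RETN, STAB1 and TLR4 were lower at day 25 and higher at day 40, and AL590714.1, CILP2, GPX2 and LAMC3 were higher and then lower; they were chosen after their values were seen. STAB1, a scavenger receptor of macrophages and sinus endothelium, had the largest change of the 6, from -1.87 to 2.37.

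**Figure D5:**
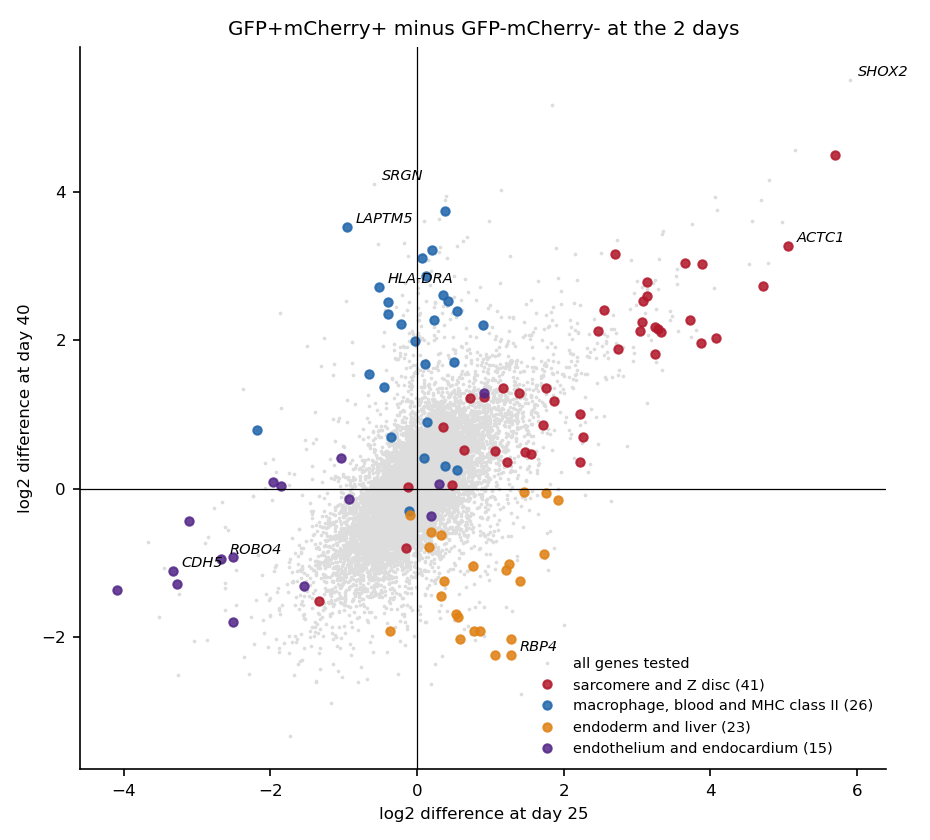
Difference between GFP+mCherry+ and double-negative cells on the log2(FPKM + 1) scale at day 40 (vertical axis) against that at day 25 (horizontal axis), with 1 small point for each of the 14091 genes and coloured points for 4 gene groups. SHOX2 is far out on both days at 5.90 and 5.51, sarcomere and Z disc genes are mostly high on both, and macrophage, blood and MHC class II genes lie near 0 at day 25 and higher at day 40.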

How the data were processed

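RNA-seq had been made by the submitters from sorted cells; per the submitters' processing notes they used bcl2fastq 2.19, cutadapt, STAR 2.5.2b, Cufflinks 2.1.1 and the hg19 build, with settings not given in the sources used here. The authors deposited 1 table of FPKM values, a unit taken from the tool and the values since the header names none. Read counts were not used here, so depth is unknown and no counting intervals were computed.

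The table had 20368 rows; the 145 names with several rows were summed to 20218 genes, and 0 columns were unmatched to a sample. Locus starts were taken as counted from 0 and are printed from 1. In 33 genes 41 values were listed at 0 although the other libraries of the group held at least 5 FPKM (19 of them in the 5 libraries compared, in 17 tested genes), and were used as deposited.

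The 14091 genes tested reached 1 FPKM in 2 or more of the 5 libraries; 234 passed only through the GFP+mCherry+ libraries and 282 only through the double-negative ones. A model with 6 group means was fitted to log2(FPKM + 1) of all 17 libraries with limma 3.58.1 in R 4.3.3 (moderated with a trend, 11 residual degrees of freedom), and p-values were adjusted by Benjamini-Hochberg with a threshold of 0.05. The procedure was tested on simulated data of this comparison (14091 genes): it called 37 of 100 genes changed by 1 log2 unit and 91 of 100 changed by 2, with 3 false calls. The simulated noise was independent and had the same spread in all libraries for a given gene. The quality weights of the real libraries ran from 0.371 to 8.108, so the simulation does not give the false calls of the real data. The comparison, its 41 gene lists and the tests were chosen with earlier results of these data known. The rule for named genes took a fixed set of reporter, nodal and chamber genes, the 12 genes with the largest difference each way among called genes whose groups did not overlap and whose higher group averaged 5 FPKM or more, and up to 6 members of each list by adjusted p; not all of them are described, and some are not reported here. The rule also took list members called against the direction of their list, ACTC1, ACTA1 and ACTA2. A further part of it was the 6 genes with the smallest p for the change between the days. KDR, NANOG, POU5F1, LIN28A, TYR, MLANA and SOX10 come from the marker lists. The genes called in opposite directions on the 2 days were added after their values were seen. Alternatives were a pseudocount of 0.1, other filters, 2 scalings, only the 5 libraries in the fit, quality weights, values at 0 set to missing, a block on consecutive library numbers, each library left out and, chosen after seeing the data, a loess correction (span 0.5) for transcript GC content, matched for 14028 genes (99.6%).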

Additional observations from a re-analysis of the deposited data

Results flagged for a closer look

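In 28 of the 182 genes described or checked, limma's test of the change between the days passed (adjusted p from 0.00131 to 0.0456). In these the difference between GFP+mCherry+ and double-negative cells was not the same at day 40 as at day 25. The naming rule had taken the 6 genes with the smallest p for this change, so that those pass is no finding. Values are the day 40 difference minus the day 25 difference on the log2(FPKM + 1) scale. Genes known from macrophages and other blood cells moved up: SRGN by 4.70, LAPTM5 by 4.48, LCP2 by 3.82, MS4A7 by 3.54, CCL4 by 3.51, ADAMDEC1 by 3.33, ITGAL by 3.15, FCGR3A by 3.03, SASH3 by 2.94, NCKAP1L by 2.73, SPI1 by 2.43, NCF4 by 2.09, GPR65 by 2.07 and PTPRC by 2.04. For the MHC class II genes the change was 3.36 in HLA-DMB, 3.24 in HLA-DRA and 2.20 in HLA-DPA1. LPL and APOC2, of lipoprotein metabolism, each changed by 2.87. PHOX2A changed by 1.27 and CHRNA1 by 1.52. The endothelial genes CDH5 and ROBO4 were less far below 0 at day 40, by 2.21 and 1.73. Endoderm and liver genes moved down, with -3.53 in RBP4, -2.77 in CDX2, -2.70 in APOA1 and -2.29 in VIL1, as did AGR2 with -2.25. With a pseudocount of 0.1 all 28 changes had the same sign, and 3 of the 28 passed (HLA-DRA, LCP2 and LPL), of 6 in the whole table, with adjusted p-values of 0.0441 to 0.773 over the 28.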

How the results depend on the processing

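At day 40, 1752 genes were called between GFP+mCherry+ and double-negative cells, of which 1033 were higher and 719 lower. This count was 620 with only the 5 libraries in the fit (440 higher, 180 lower). It was 1157 with sample quality weights (731 higher, 426 lower) and 2211 with quantile normalization (1105 higher, 1106 lower). With each library left out in turn it ran from 548 to 2104 (413 to 1198 higher, 135 to 966 lower). At day 25 the 1527 calls became 5942 with quality weights and 788 to 1261 with each library left out. The change between the days (174 genes) was called in 6 genes with a pseudocount of 0.1, 60 with a filter at 5 FPKM, 288 with quality weights and 97 to 179 with each library left out. The causes were not tested. The naming rule and the genes checked gave 166 called genes, not all of them described; of these 154 were called with a pseudocount of 0.1, 102 with only the 5 libraries (NPPA, LDB3, TBX3, KCNJ2, COL1A1 and RPS19 were among those not called, at 0.0522, 0.0889, 0.0688, 0.0599, 0.0943 and 0.0645), 145 with quality weights, 153 after the GC correction and 96 to 154 with each library left out, and none of the 166 reversed in the alternatives that tested it. Genes not called changed sign as follows: with each library left out TBX18 ran from -1.18 to 0.04 (library 18 left out), NKX2-5 from -0.32 (library 10) to 1.91, GJA1 from -0.23 to 0.12 (library 15; 0.10 without library 13) and MYL2 from -0.51 (library 10; -0.26 and -0.15 without libraries 18 and 15) to 0.61, and MYL2 was -0.06 with consecutive library numbers as a block. The labels give no replicate numbers shared by the groups; with sets of consecutive library numbers as a replicate block there were 1540 calls, 155 of the 166 genes among them, and ACTA1, SMYD1 and TBX20 were called (adjusted p = 0.0043, 0.0333 and 0.00957). Fitting only the 5 libraries also added 5 calls by limma's test among the genes checked. These were MYH6, ACTA1, SLPI, SFTPD and SLC34A2 (adjusted p = 0.0177, 0.0379, 0.00991, 0.0281 and 0.0306). With 2 GFP+mCherry+ libraries and no counts, small differences of low genes could not be resolved.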
